A study of Homo sapiens with 12 samples.

Results

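The members described here are the collagen and laminin chain genes measured in HT1080 cells, an established human fibrosarcoma cell line of connective tissue origin. They were chosen by symbol alone, from the listed genes named COL, a number, A and a number, or LAM, then A, B or C, and 1 digit. The 46 members described were among 16633 gene symbols in either table. They were 10 fibrillar collagens, 7 basement membrane collagens, 19 other collagens and 10 laminin chains. The table of the PMA experiment listed 45 of them and the table of the ConA experiment 42, with 41 in both. COL3A1, COL11A1, COL14A1 and COL25A1 were listed with PMA only, and COL9A3 with ConA only.

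The RNA sequencing addressed how HT1080 cells respond to phorbol 12-myristate 13-acetate (PMA), a phorbol ester that activates protein kinase C, or to Concanavalin A (ConA), a jack bean lectin that binds mannose and glucose residues of glycoproteins. There were 12 libraries of polyadenylated RNA in 4 groups of 3. PMA at 40 nM for 24 h was set against PMA controls 1 to 3, and ConA at 40 µg/mL for 24 h against ConA controls 4 to 6. All groups were wild-type cells. The protocol given with every sample, controls included, describes growth in biotin-depleted medium and a change to low-serum biotin-depleted medium at treatment, and it does not say how controls were handled at that step or name a vehicle. The labels do not say that replicates were separate cultures, so p-values measure the spread between these libraries, which may be technical. These are bulk samples of 1 cell line, so fewer cells of a kind and less RNA per cell cannot be told apart.

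Collagens are trimers of alpha chains wound into a triple helix. Fibrillar collagens (types I, III, V, XI, XXIV and XXVII here) form the banded fibres that bear tension in connective tissue, whereas type IV collagen forms the sheet-like network of basement membranes. Laminins are cross-shaped or truncated trimers of an alpha, a beta and a gamma chain that lie next to that network and bind integrins on cells. Which laminin a cell can secrete depends on which chains it makes. LAMA3 and LAMB3 are chains of the laminin of epithelial adhesion sites, while LAMB1 and LAMC1 are the beta and gamma chains of most other laminins.

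Values are normalized counts, that is, read counts per gene divided by 1 factor per library within each table. Changes are log2 fold changes from limma on log2(normalized count + 1), where 1 is a change by a factor of 2. A gene was called when this change was at least 1 in either direction with a Benjamini-Hochberg adjusted p of at most 0.0001 over all genes tested. Estimated depth was 33636498 to 45583490 reads per library. Replicates differed by 3.53 to 16.43 times the variance that read sampling gives, so their spread sets the precision. Both tables listed all 8 mesenchymal markers, with summed levels of 418528 to 430977 normalized counts in PMA controls, 445265 to 465182 with PMA, 419573 to 500446 in ConA controls and 287993 to 308697 with ConA. VIM led the sum in the PMA experiment and FN1 in the ConA experiment. With PMA, VIM, ZEB1 and CD44 were higher, while FN1, CDH2, S100A4, TWIST1 and PDGFRB were lower. With ConA, CDH2 and TWIST1 were higher and ZEB1 overlapped its controls, while the rest were lower. Of 6 epithelial markers, led by CLDN4, 2 were listed with PMA and summed to 130.0 to 135.9 in controls and 65.9 to 81.3 with PMA, and 5 were listed with ConA and summed to 149.3 to 159.1 in controls and 158.2 to 209.3 with ConA. Endothelial markers (4 of 5 listed) summed to 164.6 to 208.5 in PMA controls, 208.2 to 218.2 with PMA, 190.7 to 242.4 in ConA controls and 261.3 to 280.1 with ConA, and none of 5 erythroid markers was listed in the tables used here. Of 10 leukocyte markers, 7 were listed in the PMA table and summed to 700.5 to 761.6 in controls and 944 to 1417 with PMA, whereas 2 were listed in the ConA table, at 105.2 to 169.2. The sums hide single markers that differ. VWF was lower and KDR higher under both treatments, while PECAM1 and TEK overlapped their controls with PMA and were higher with ConA. With PMA, GNLY, CD3E and NKG7 were higher, LYZ was lower, and PTPRC, CD3D and CD2 overlapped. CLDN4 and ESRP1 were lower with PMA. With ConA, CLDN4 and KRT14 were higher, ESRP1 was lower, and EPCAM, CDH1, CD3D and LYZ overlapped. The part of all these markers in the results below was not tested.

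Of the 38 members tested with PMA (a mean of at least 10 normalized counts), 3 rose and 5 fell. Without PMA control 1 this count of 8 was 5, and the count over all genes was 1107 of 15130, against 1310 of 15153. The 8 are 21.1% of the members tested, beside 8.65% of the 15153 genes tested, of which 4.03% rose and 4.61% fell. With ConA, 5 of 37 members rose and 2 fell, or 18.9%, beside 8.71% of 15139 genes, of which 5.83% rose and 2.88% fell. Without the fold requirement, 28 of 38 members reached a limma adjusted p of 0.05 or less with PMA, beside 63.3% of all genes, and 30 of 37 with ConA, beside 65.3%. Values of treated libraries lay wholly above or below those of controls for 29 of 38 members with PMA, beside 67.9% of all genes, and for 30 of 37 with ConA, beside 69.3%. The median change of the members was -0.24 with PMA and 0.16 with ConA, beside 0.0030 and -0.0020 over all genes. Members differed among themselves far more than these medians. With PMA their changes ran from -2.41 for COL6A5, a low member, to 1.83 for LAMB3. With ConA they ran from -2.04 for COL15A1 to 3.01 for COL8A1.

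**Figure D1:**
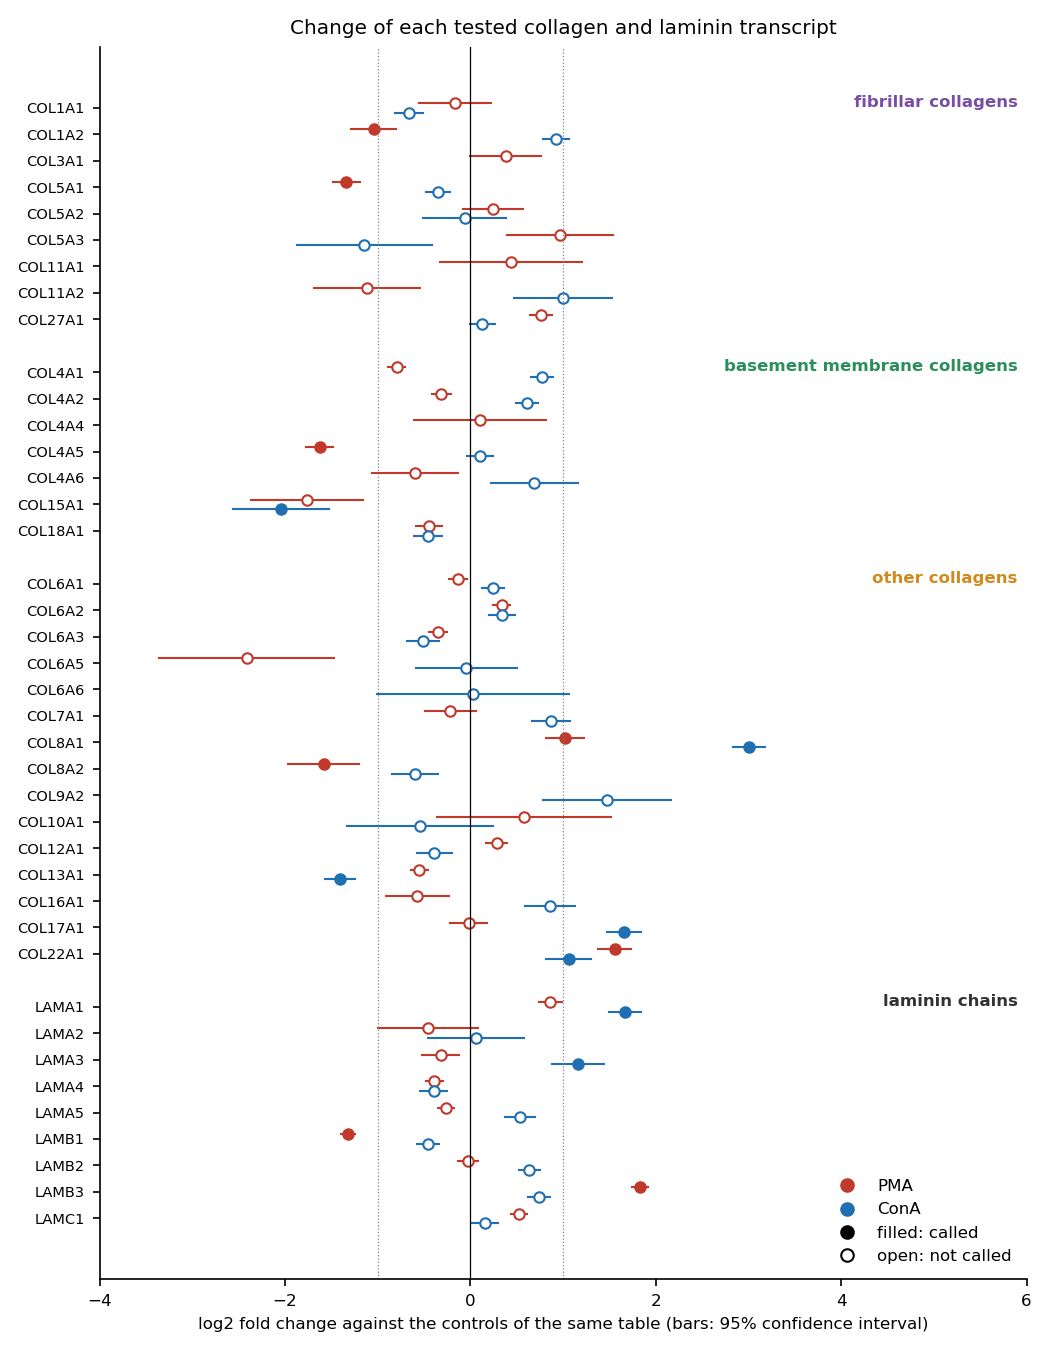
Log2 fold change of every tested member against the controls of its own table, by class, with its 95% confidence interval (horizontal axis, log2 scale); red is PMA, blue is ConA and filled points are called genes. LAMB3, at 1.83, is the point farthest to the right with PMA, COL8A1 stands alone at 3.01 with ConA, and COL4A1, COL4A2 and COL1A2 lie on opposite sides of 0.

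By class, the fibrillar collagens had 2 of 9 tested members lower with PMA and 0 of 7 called with ConA. Of those 7, 5 reached a limma adjusted p of 0.05 or less without the fold requirement, beside 65.3% of all genes. The basement membrane collagens had 1 of 7 lower with PMA and 1 of 6 lower with ConA. The laminin chains had 1 of 9 higher and 1 lower with PMA, and 2 of 9 higher with ConA. The other collagens had 2 of 13 higher and 1 lower with PMA, and 3 of 15 higher and 1 lower with ConA. Over all genes tested, 8.65% were called with PMA and 8.71% with ConA. In the basement membrane class the medians were -0.60 with PMA and 0.36 with ConA, and in the laminins -0.26 and 0.53. They were 0.25 and -0.062 in the fibrillar collagens and -0.13 and 0.25 in the other collagens.

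Per length of transcript, COL6A3, LAMB3, LAMB1, LAMC1, COL4A2, COL6A1 and COL6A2 were the 7 members with the highest levels in both control groups. In PMA controls COL6A3 stood at 10840.4 ± 194 normalized counts per kb (SD, n = 3) and LAMB3 at 8076 ± 107. The members next in order, COL6A2 at 3612 ± 27.6, LAMB1 at 3331 ± 64.9 and COL4A2 at 3151 ± 190.5, were closer together, and the ranges of LAMB1 and COL4A2 overlapped. In ConA controls COL6A3 stood at 11046 ± 1273 per kb and LAMB3 at 6767 ± 355. There LAMB1, COL4A2 and COL6A2 overlapped one another. Fibrillar collagens were far lower, led by COL5A1 at 397 ± 36.98 per kb in PMA controls and 686 ± 41.1 in ConA controls, while COL1A1 stood at 139 ± 5.03 and 195 ± 11.5.

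With PMA the order changed: LAMB3 came first at 28682 ± 751 normalized counts per kb, then COL6A3 at 8502 ± 146 and COL6A2 at 4562 ± 199.8, with no overlap between neighbours. With ConA, LAMB3 also came first, at 11315 ± 319 per kb, followed by COL6A3 at 7708 ± 338 and COL4A2 at 6366 ± 286. Lengths are of the longest protein-coding transcript, so a gene with several transcript forms, such as LAMA3, has a level per kb that depends on this choice.

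Summed over all members, collagen and laminin transcripts were 0.774% ± 0.0138 (SD, n = 3) of a PMA control library and 0.832% ± 0.0170 with PMA, and 0.745% ± 0.0563 and 0.819% ± 0.0164 in the ConA experiment. The laminin chains went from 32.1% of that sum in PMA controls to 52.5% with PMA, with no overlap between libraries (31.9% to 32.3% in controls). LAMB3 itself is in this sum, and the 9 other laminin chains together summed to 57056 ± 996.8 normalized counts in PMA controls and 51766 ± 724 with PMA. In the ConA experiment the share of all laminin chains, LAMB3 included, went from 31.8% to 36.8%. There the 9 chains other than LAMB3 summed to 72558 ± 5318 normalized counts in controls and 74595 ± 443 with ConA. Basement membrane collagens went from 12.3% to 7.36% with PMA and from 15.2% to 22.5% with ConA, again without overlap in either experiment. Other collagens, chiefly COL6A3, went from 53.3% to 38.5% and from 50.1% to 38.3%. A share also depends on the other members of the sum, LAMB3 included. In normalized counts, other collagens summed to 152233 in PMA controls and 128571 with PMA, and 160269 in ConA controls and 128393 with ConA. Basement membrane collagens summed to 35043 and 24597 in the PMA experiment, and 48536 and 75438.5 in the ConA experiment. Fibrillar collagens were 2.35% and 1.69% in the PMA experiment, and 2.89% and 2.44% in the ConA experiment.

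LAMB3, the beta chain of the laminin of epithelial adhesion sites, rose with PMA. Its normalized counts were 34749, 34314 and 35233 in PMA controls and 125377, 119745 and 125305 with PMA. These were the highest values of any member in the PMA libraries. Every PMA library lay above every control by more than a factor of 3, which exceeds the spread within either group. The log2 fold change was 1.83 (SE 0.041, limma adjusted p = 2.03e-11). In the ConA experiment LAMB3 stood at 27667, 29020.3 and 30714 in controls and 49238, 47151 and 49737 with ConA, a change of 0.74 (adjusted p = 5.46e-08) that was under the fold needed for a call although the groups did not overlap. With 3 libraries against 3, an exact two-sided permutation test of a single gene cannot give a p under 0.1, so the calls rest on the variance pooled over genes.

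LAMA3, the alpha chain of the same laminin, was scarce per length, at 41.4 ± 3.24 normalized counts per kb in PMA controls and 33.95 ± 6.08 in ConA controls. It did not go with LAMB3 under PMA: controls held 471, 449.8 and 404 normalized counts and PMA libraries 373, 316 and 372, lower in all 3 by 0.32 on the log2 scale and not called. With ConA it rose, from 398, 287 and 401 to 672, 899.9 and 855. This was a change of 1.16 (SE 0.13, adjusted p = 2.75e-06), called with a variance trend over the mean level but not without it (adjusted p = 0.00183).

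The promoter windows of LAMB3 and LAMA3 are shown because they are the only member windows that hold TGAGTCA or its reverse complement TGACTCA, the recognition sequence of the AP-1 transcription factors through which phorbol esters act on many genes. RefSeq gave 300-base windows (250 before a start to 50 after it, build GRCh38.p14) for 34 of the 46 members, 47 windows in all. This motif was in 2 of the 47 (4.26%), beside 4.95% of all 35116 windows. LAMB3 has 3 windows, and the one with the match is chr1:209651325-209651624 on the minus strand, with the match beginning at -67 from the start. The LAMA3 window is chr18:23872770-23873069 on the plus strand, with matches beginning at -125 and -69. Capitals mark the matches as read on the gene's own strand, 5′ to 3′.
LAMB3: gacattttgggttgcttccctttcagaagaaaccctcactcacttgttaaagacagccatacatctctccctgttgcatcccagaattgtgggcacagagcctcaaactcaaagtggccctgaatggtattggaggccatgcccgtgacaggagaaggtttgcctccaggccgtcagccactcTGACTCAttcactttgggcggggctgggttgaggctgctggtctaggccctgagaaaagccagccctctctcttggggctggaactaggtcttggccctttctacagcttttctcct
LAMA3: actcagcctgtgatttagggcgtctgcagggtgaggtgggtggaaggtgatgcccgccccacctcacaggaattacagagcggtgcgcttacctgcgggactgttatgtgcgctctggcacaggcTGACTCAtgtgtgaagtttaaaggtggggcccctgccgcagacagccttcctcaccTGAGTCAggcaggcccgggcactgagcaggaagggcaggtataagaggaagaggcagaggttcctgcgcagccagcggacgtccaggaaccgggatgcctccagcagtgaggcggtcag
A match is a description of letters and not of binding. LAMB3 was called with PMA only and LAMA3 with ConA only. With ConA both were higher in every treated library than in every control. The log2 fold changes there were 0.74 for LAMB3, under the fold for a call, and 1.16 for LAMA3. With PMA LAMA3 was lower, at -0.32. Counts are per gene, so they do not tell the 3 LAMB3 windows apart, and the part of these matches in the changes was not tested.

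LAMB1, a beta chain of many laminins other than that of epithelial adhesion sites, fell with PMA. It stood at 19571, 18823 and 19219 normalized counts in controls and 7763, 7612 and 7659 with PMA, a change of -1.32 (SE 0.035, adjusted p = 7.27e-11). With ConA it was 25192, 23207 and 25103 in controls and 18366, 17615 and 17544 in treated libraries, lower in all 3 but by only 0.46 on the log2 scale. Its usual gamma partner LAMC1 did not follow. LAMC1 was 19085, 18506 and 19735 in PMA controls and 28096, 27569.9 and 26998 with PMA (0.53, not called). It was 26328, 22238 and 26362 in ConA controls and 27331, 28196 and 27762 with ConA (0.16, not called).

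LAMA1, the alpha chain of a laminin prominent in embryonic basement membranes, rose with ConA from 562, 483 and 601 to 1715, 1756 and 1739.7 normalized counts (1.67, SE 0.079, adjusted p = 3.14e-10). In the PMA experiment it was 606, 619 and 633 in controls and 1167, 1074 and 1141 with PMA, higher in all 3 libraries but with a change of 0.86 that missed the fold threshold. The other laminin chains were not called. LAMB2, a beta chain of mature basement membranes, gave -0.028 with PMA (95% interval from -0.13 to 0.077) and 0.64 with ConA. LAMA5 gave -0.26 and 0.53, and LAMA4, the most abundant alpha chain per length at 1222 ± 39.99 normalized counts per kb in PMA controls, gave -0.39 and -0.39. LAMA2 was low, at 22.1 to 45.2 normalized counts over the 12 libraries, and LAMC3 was under the filter in both tables, at 1.20 to 17.9.

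**Figure D2:**
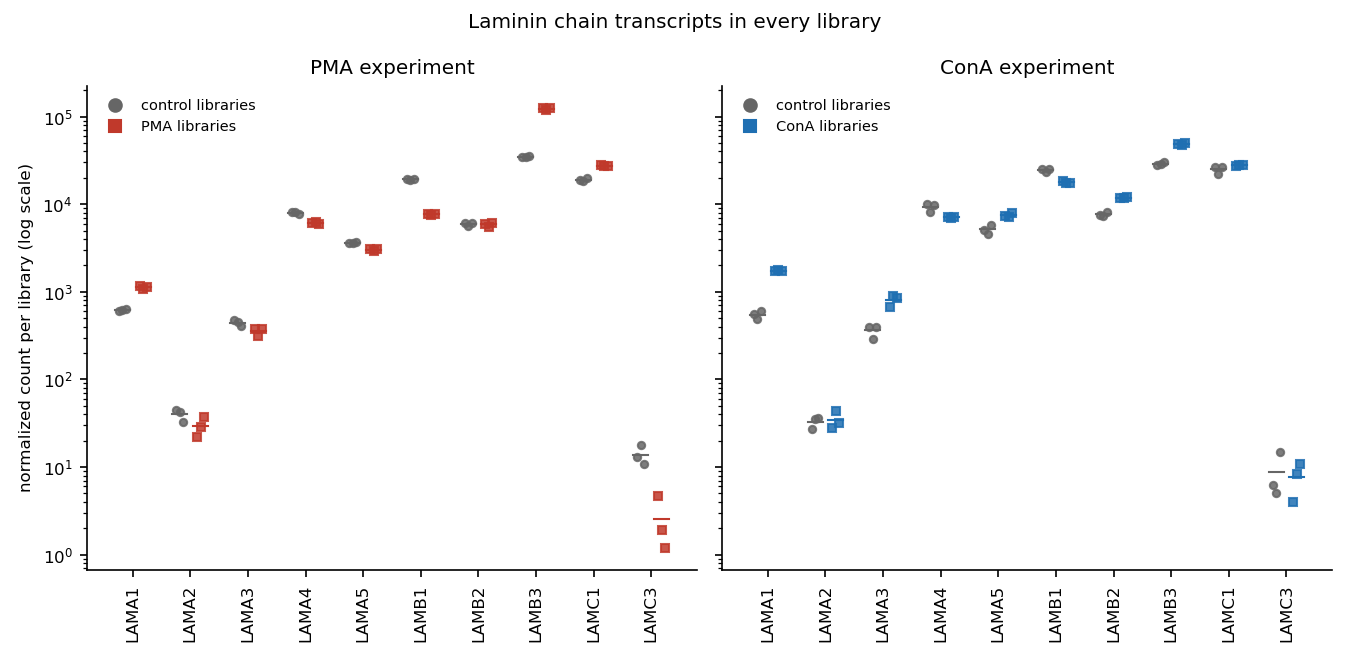
Normalized counts of the 10 laminin chains in every library (log axis), controls in grey and treated libraries in colour, with a horizontal line at each group mean. LAMB3 goes from about 34765 to 123476 with PMA, LAMB1 goes the other way, and the LAMA1 and LAMA3 points separate upward with ConA.

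Ratios within a library do not depend on its normalization factor, and they show the same shift between chains, as values with no test. LAMB3 to LAMB1 was 1.81 ± 0.0308 in PMA controls (SD, n = 3) and 16.1 ± 0.320 with PMA. The same ratio was 1.19 ± 0.0813 in ConA controls and 2.73 ± 0.0902 with ConA, so it went up in both experiments without overlap of libraries. LAMB1 to LAMC1, near 1 in both control groups at 1.01 ± 0.0278 and 0.984 ± 0.0515, was 0.279 ± 0.00430 with PMA and 0.643 ± 0.0255 with ConA. The LAMB1 to LAMC1 ratio was one of the listed ratios, and LAMB3 to LAMB1 was added after its values were seen.

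**Figure D3:**
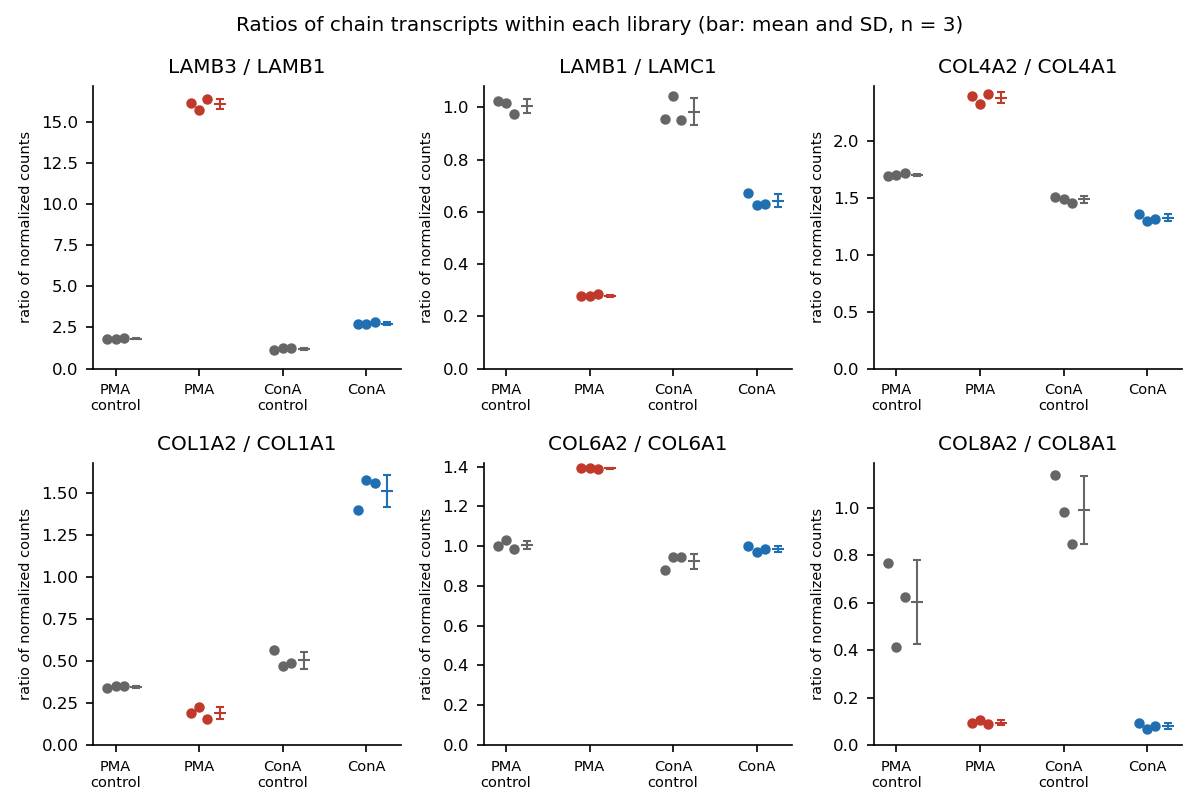
Ratios of normalized counts of paired chain transcripts within each library (vertical axis, from 0), with the mean and SD of 3 libraries beside each group. LAMB3 to LAMB1 stands at 16.1 with PMA against 1.81 in its controls, and COL1A2 to COL1A1 and COL4A2 to COL4A1 move in opposite directions with PMA and ConA.

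COL4A2 and COL4A1 were the most abundant basement membrane collagens. They encode the chains of the widespread type IV trimer and lie head to head on chromosome 13, transcribed away from a common promoter. In the RefSeq windows their starts are 127 bases apart and the windows overlap by 226 bases, so that a single CCAAT box (CCAAT, or ATTGG on the other strand, with its lowest base at chr13:110307179) begins at -26 from the COL4A1 start and at -105 from the COL4A2 start. The windows are chr13:110307108-110307407 on the minus strand for COL4A1 and chr13:110307034-110307333 on the plus strand for COL4A2, and they are shown because their genes moved unequally. Capitals mark that box, which 34.6% of all windows and 13 of the 47 member windows (27.7%) hold.
COL4A1: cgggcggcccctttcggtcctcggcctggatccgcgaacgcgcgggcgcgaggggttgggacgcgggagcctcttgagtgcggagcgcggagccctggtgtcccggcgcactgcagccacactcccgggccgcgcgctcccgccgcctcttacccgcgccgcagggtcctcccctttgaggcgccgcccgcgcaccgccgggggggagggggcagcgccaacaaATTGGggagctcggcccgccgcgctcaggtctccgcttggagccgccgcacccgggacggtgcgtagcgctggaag
COL4A2: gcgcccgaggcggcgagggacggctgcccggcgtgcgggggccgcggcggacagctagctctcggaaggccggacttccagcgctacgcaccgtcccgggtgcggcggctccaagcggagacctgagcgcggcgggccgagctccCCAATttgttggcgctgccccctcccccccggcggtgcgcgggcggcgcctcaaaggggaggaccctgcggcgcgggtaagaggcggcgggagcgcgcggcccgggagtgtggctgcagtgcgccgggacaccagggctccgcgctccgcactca

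COL4A1 was 11730.1, 11589.9 and 12784 normalized counts in PMA controls and 7080.3, 6838 and 6849 with PMA. In the ConA experiment it was 18283, 17263 and 19222 in controls and 31652, 30309 and 31633 with ConA. It was thus lower in every PMA library and higher in every ConA library than in the respective controls, although neither change was called (-0.80, adjusted p = 3.1e-08, and 0.77, adjusted p = 2.61e-08). COL4A2 was 19864, 19645 and 21888 in PMA controls and 16933, 15889.5 and 16524 with PMA, and 27597, 25743 and 27848 in ConA controls and 43037, 39357 and 41627 with ConA. Its log2 fold changes were nearer to 0, at -0.31 and 0.61. The COL4A2 to COL4A1 ratio was 1.70 ± 0.0104 in PMA controls and 2.38 ± 0.0466 with PMA, and 1.48 ± 0.0311 in ConA controls and 1.32 ± 0.0315 with ConA. The libraries did not overlap in either experiment, so the transcripts on either side of the shared window did not change in equal measure.

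COL4A5 and COL4A6 form another head-to-head pair, on the X chromosome, and COL4A5 encodes a chain of the type IV network of kidney and other specialised basement membranes. The windows chrX:108439588-108439887 (plus strand, COL4A5) and chrX:108439409-108439708 (minus strand, COL4A6) overlap by 121 bases, with starts 380 bases apart. This is 1 of the 2 COL4A6 windows. Capitals again mark CCAAT or ATTGG, of which the COL4A5 window holds 2 and the COL4A6 window 3. Both COL4A5 boxes, with lowest bases at chrX:108439591 and chrX:108439599, lie in the overlap and are also marked in the COL4A6 window.
COL4A5: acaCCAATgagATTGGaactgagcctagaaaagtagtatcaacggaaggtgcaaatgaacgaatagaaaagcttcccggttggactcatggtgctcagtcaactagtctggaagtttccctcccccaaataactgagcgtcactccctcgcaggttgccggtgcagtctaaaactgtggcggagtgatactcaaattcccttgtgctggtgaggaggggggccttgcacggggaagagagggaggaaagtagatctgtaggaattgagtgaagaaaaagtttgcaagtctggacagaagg
COL4A6: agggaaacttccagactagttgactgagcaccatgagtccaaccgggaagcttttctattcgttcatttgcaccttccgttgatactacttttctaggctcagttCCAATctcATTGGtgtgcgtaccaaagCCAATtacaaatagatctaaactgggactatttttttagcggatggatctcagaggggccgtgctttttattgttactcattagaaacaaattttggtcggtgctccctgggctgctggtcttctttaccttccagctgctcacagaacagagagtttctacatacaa
COL4A5 fell with PMA, from 1447, 1511 and 1556 to 489, 449 and 526 normalized counts (-1.63, SE 0.066, adjusted p = 2.25e-09). With ConA its groups overlapped, at 1719, 1569 and 1524 in controls and 1666, 1696 and 1812 in treated libraries, and the 95% interval of the change ran from -0.032 to 0.24. COL4A6 was scarce, at 28.5 to 63.8 normalized counts over the 12 libraries, with changes of -0.60 and 0.69 that were not called. COL4A4 was scarcer still, at 5.00 to 21.2.

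COL15A1 and COL18A1 encode the collagens of basement membrane zones whose ends can be released as endostatin-like fragments. COL15A1 fell with ConA, from 84.4, 65.03 and 85.2 to 24.03, 13.6 and 17.97 normalized counts (-2.04, adjusted p = 4.26e-06). Without ConA control 6 the change was -1.98 with an adjusted p of 0.000107, just above the threshold, so the call was lost. The adjusted p without a variance trend was 0.000495, and COL15A1 lost the call there too. With PMA it was 50.7, 58.1 and 58.7 in controls and 22.1, 10.5 and 16.8 in treated libraries, a change of -1.76 that missed the threshold on its adjusted p of 0.000169. It was called with PMA under a pseudocount of 10 (adjusted p = 7.77e-05) and in a fit that took the spread from all 12 libraries (adjusted p = 1.66e-05). COL18A1 gave almost equal values under both treatments, at -0.45 and -0.46, not called in either.

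Among fibrillar collagens the type I chains parted. Type I collagen is a trimer of COL1A1 and COL1A2 chains in which COL1A1 is in excess. COL1A2 fell with PMA, from 331, 326 and 316 to 149, 141 and 186 normalized counts (-1.04, SE 0.11, adjusted p = 7.77e-06). The call was lost without PMA control 1 (adjusted p = 0.000119) and without PMA library 2 (log2 fold change -0.96). Quantile normalization (-0.90) and leaving out the variance trend (adjusted p = 0.000603) also ended the COL1A2 call. With ConA it stood at 689.9, 632 and 663 in controls and 1248, 1239.6 and 1269.7 in treated libraries, higher in all 3 by 0.92 (adjusted p = 2.33e-08), under the fold for a call.

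COL1A1 was 973, 933 and 905 in PMA controls and 786, 615 and 1195 with PMA, so that the groups overlapped (-0.17, 95% interval from -0.56 to 0.22). It was 1225, 1352 and 1366 in ConA controls and 891, 786 and 816 with ConA, lower in all 3 treated libraries by 0.66 on the log2 scale and not called. The COL1A2 to COL1A1 ratio therefore went from 0.346 ± 0.00530 to 0.191 ± 0.0367 with PMA and from 0.505 ± 0.0506 to 1.51 ± 0.0968 with ConA, with no overlap in either experiment. The PMA library 3 was the highest of the PMA libraries for COL1A1, COL1A2, COL3A1 (268, 232 and 369) and COL5A2 (226, 217 and 311). It also had the highest sum of the leukocyte markers, at 944, 1081 and 1417 in PMA libraries 1 to 3, and the part of these markers in the COL1A1, COL3A1 and COL5A2 values was not tested. Without PMA library 3 the COL1A2 change was -1.16.

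COL5A1, a regulatory chain of type V collagen that sets fibril width, was the most abundant fibrillar member in controls and fell with PMA. It stood at 3129, 3239 and 3718 normalized counts in PMA controls and 1410.5, 1294 and 1280.0 with PMA (-1.34, SE 0.066, adjusted p = 1.12e-08). ConA controls held 5807, 5471 and 6167 and ConA libraries 4875, 4316 and 4497, a change of -0.35 that was not called. COL27A1, a fibrillar collagen of cartilage, was higher in all PMA libraries (2817, 2617 and 2597) than in controls (1491, 1676 and 1559), at 0.77, and overlapped with ConA (1285, 1247 and 1386 against 1460.0, 1385 and 1431). COL11A2, a cartilage chain, was 35.04, 49.2 and 56.9 in PMA controls and 20.9, 16.2 and 26.3 with PMA, and 30.2, 20.01 and 18.03 in ConA controls and 50.1, 44.9 and 41.3 with ConA. Its changes of -1.12 and 0.997 were in opposite directions, and neither was called. COL5A2 stood at 178 to 237 normalized counts in PMA controls and 44.1 to 79.0 in ConA controls, which belong to separately normalized tables. The low COL5A3, at 17.5 ± 3.48 in PMA controls and 35.02 ± 6.11 with PMA, gave 0.97 and -1.14, neither called.

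**Figure D4:**
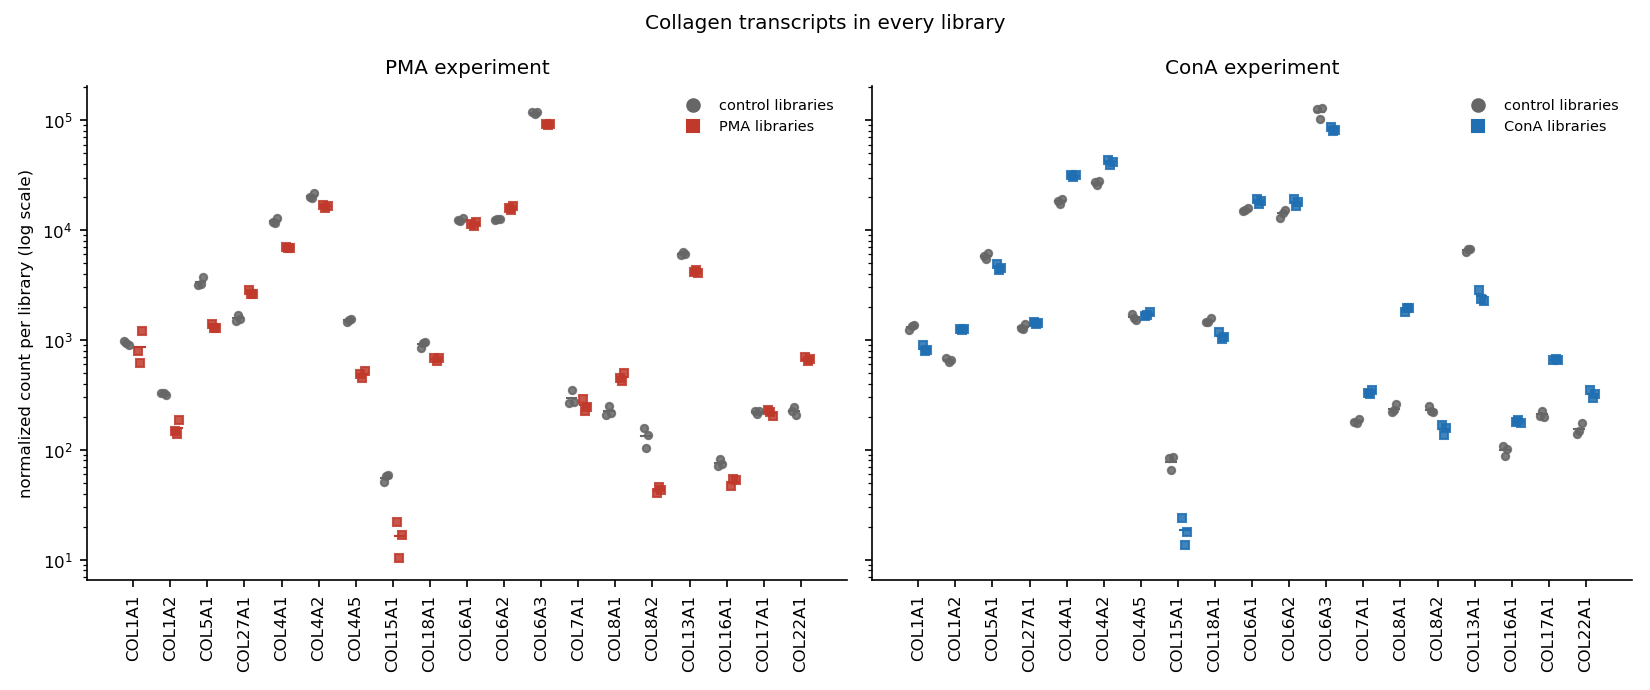
Normalized counts of 19 collagen genes in every library (log axis), controls in grey and treated libraries in colour, with a horizontal line at each group mean. COL8A1 goes from about 237 to 1910 with ConA, COL15A1 is low after both treatments, COL4A5 separates with PMA only, and the PMA points of COL1A1 straddle its controls.

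Type VI collagen, which forms beaded microfilaments around cells, held the most abundant member of both control groups. COL6A3 was 117606, 114116 and 117849 normalized counts in PMA controls and 92916, 89778 and 91465 with PMA, and 125401, 102985 and 127800.0 in ConA controls and 87027, 80380.1 and 81166 with ConA. It was lower in every treated library, by 0.35 and 0.51 on the log2 scale, and not called. COL6A1 gave -0.13 and 0.25, not called, from 12400.1, 12178 and 12751 to 11352, 10829.7 and 11863 with PMA and from 14759, 15179 and 16006 to 19031, 17195 and 18329 with ConA. COL6A2, next to COL6A1 in the genome, was 12394, 12531 and 12577 in PMA controls, 15819, 15085 and 16466 with PMA, 12992, 14338 and 15095 in ConA controls and 19028, 16695 and 18080.1 with ConA, or 0.34 and 0.34. The COL6A2 to COL6A1 ratio, also added after the values were seen, was 1.00 ± 0.0218 in PMA controls and 1.39 ± 0.00300 with PMA, and 0.923 ± 0.0367 in ConA controls and 0.986 ± 0.0145 with ConA, with no overlap in either experiment. The minor chain COL6A5 was at 27.7, 30.4 and 23.5 in PMA controls and 3.48, 8.56 and 2.39 with PMA, the most negative change of any member (-2.41), with an adjusted p of 0.000455 that missed the threshold. A count of 3 reads makes 3.48, 2.85 and 3.59 normalized counts in PMA libraries 1 to 3. The COL6A5 values in PMA libraries 1 and 3 are at or under that level. In the fit over 12 libraries the COL6A5 adjusted p was 9.15e-06 and it was called. With ConA it gave -0.045, not called.

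COL8A1, a short-chain collagen of vessel walls and the cornea, had the largest change of any member with ConA. It rose from 219.9, 231 and 259 to 1793, 1970.2 and 1967 normalized counts (3.01, SE 0.080, adjusted p = 4.67e-13). It also rose with PMA, from 208, 249 and 218 to 446, 426 and 498 (1.02, adjusted p = 2.3e-06). This smaller change lies on the fold threshold and fell under it without PMA control 1 (0.96), without PMA control 3 (0.998) and without PMA library 3 (0.95). A pseudocount of 10 (0.99) and leaving out the variance trend (adjusted p = 0.000335) also ended the call with PMA.

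COL8A2, which encodes the other type VIII chain, went the other way. It fell with PMA, from 159.5, 103 and 136 to 40.6, 45.6 and 43.1 normalized counts (-1.58, SE 0.17, adjusted p = 1.13e-05), though without PMA control 1 the adjusted p was 0.000134 and the call was lost. Without a variance trend the adjusted p was 0.000574, and COL8A2 lost the call there too. With ConA it was lower in all 3 libraries (250.1, 227 and 220.4 against 167, 137 and 157, -0.60) and not called. The COL8A2 to COL8A1 ratio went from 0.601 ± 0.177 to 0.0949 ± 0.0108 and from 0.990 ± 0.144 to 0.0809 ± 0.0119, down in both experiments without overlap of libraries, and was chosen for display after the values were seen.

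Of the transmembrane collagens, COL17A1 and COL13A1 were called with ConA and not with PMA. COL17A1, the collagen of hemidesmosomes, rose from 203, 227 and 198 to 662, 673 and 655 normalized counts (1.66, SE 0.086, adjusted p = 8.64e-10). With PMA the groups overlapped (225, 210.2 and 226 against 229.9, 219 and 204), with a 95% interval of the change from -0.22 to 0.18. COL13A1, a collagen of cell adhesion sites and the neuromuscular junction, fell with ConA, from 6349, 6727 and 6718 to 2853, 2375 and 2253 (-1.41, SE 0.075, adjusted p = 1.17e-09). It was lower with PMA by 0.55 on the log2 scale, at 5972, 6308 and 5997 in controls and 4117, 4334 and 4039 in treated libraries, and not called. Without a variance trend the COL13A1 adjusted p with ConA was 0.000112, just above the threshold. COL7A1, the anchoring fibril collagen of skin, was 178, 175 and 192 in ConA controls and 326, 323 and 349 with ConA (0.87, not called), and overlapped with PMA (265, 351 and 274 against 290.2, 225 and 247).

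COL22A1, a fibril-associated collagen of tissue junctions, rose under both treatments. It went from 224, 247 and 209 to 700.0, 638 and 667 normalized counts with PMA (1.56, adjusted p = 1.76e-08) and from 141, 147 and 175 to 347, 299 and 321 with ConA (1.06, adjusted p = 1.58e-06). The ConA call was lost without ConA control 4 (0.998), with quantile normalization (0.96) or median centring (0.999), and without a variance trend (adjusted p = 0.000375). COL16A1, another fibril-associated collagen, was 70.99, 83.2 and 74.9 in PMA controls and 46.4, 54.2 and 52.7 with PMA, and 108, 87.04 and 102 in ConA controls and 179, 185 and 176 with ConA. It was lower with PMA and higher with ConA in every library (-0.57 and 0.86), with neither change called. COL12A1, a fibril-associated collagen with a mean of 3406 ± 135 normalized counts (SD, n = 3) in PMA controls, gave 0.28 and -0.39 and was not called.

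The remaining tested members were low and not called in either comparison. COL10A1 gave 0.58 and -0.55 with overlapping groups in both, and COL11A1, tested with PMA alone, gave 0.44. COL9A2 was tested with ConA alone and stood at 13.5 ± 5.74 normalized counts in controls and 37.96 ± 8.66 with ConA (1.47, adjusted p = 0.00105), while COL6A6, also tested there alone, gave 0.027. With PMA 7 were under the filter (COL24A1, LAMC3, COL6A6, COL9A2, COL14A1, COL21A1 and COL25A1), at 0 to 24.4 normalized counts, and with ConA 5 (COL4A4, COL24A1, LAMC3, COL9A3 and COL21A1), at 2.09 to 18.02. These were given no test. LAMC3, for example, stood at 12.9, 17.9 and 10.8 in PMA controls and 4.64, 1.90 and 1.20 with PMA, where the groups do not overlap but the PMA values are near the 2.68 to 3.59 normalized counts that 3 reads make in these libraries.

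The treatments were then compared with each other in 1 limma fit of all libraries, where a positive difference means a more positive log2 fold change under PMA than under ConA. The experiments share no library. Of 37 members tested, 1 difference was higher and 9 were lower, or 27% beside 10.6% of the 15030 genes tested (3.67% higher and 6.89% lower). At an adjusted p of 0.05 or less without the fold, 27 of 37 members differed, beside 61.1% of all genes. The median difference of the members was -0.67, beside -0.010 over all genes. Of the 35 members tested in both experiments, COL8A1 and COL22A1 were called under both treatments, in the same direction. These are 2 of the 8 members called with PMA and 2 of the 7 called with ConA. The same overlap was not counted over all genes, so it cannot be said whether 2 is many or few.

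LAMB3 was the 1 member called with a higher change under PMA, by 1.09 (SE 0.068, adjusted p = 3.82e-10). LAMA3, of the same laminin, differed in the opposite direction, by -1.48 (adjusted p = 1.64e-06, or 0.00019 without a variance trend, which ended the call), and LAMB1 gave -0.87, not called.

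COL4A1 had the lowest adjusted p of any member for the difference. The difference was -1.57 for COL4A1 (SE 0.070, adjusted p = 3.12e-12) and -1.73 for COL4A5 (SE 0.093, adjusted p = 4.54e-11). For COL4A2 it was -0.93 (adjusted p = 1.03e-08), not called. COL1A2 differed by -1.96 (SE 0.12, adjusted p = 4.07e-10) and COL8A1 by -1.99 (SE 0.12, adjusted p = 3.62e-10). COL17A1, the hemidesmosomal collagen, differed by -1.68 (adjusted p = 1.7e-09), COL16A1 by -1.43 (adjusted p = 4.07e-06) and COL7A1 by -1.09 (adjusted p = 1.51e-05). For COL7A1 the difference without PMA control 2 was -0.96, under the fold for a call. Its adjusted p without a variance trend was 0.000268, which also ended the call.

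COL11A2, a low member, differed by -2.11 (SE 0.36, adjusted p = 7.9e-05). Leaving out PMA control 2 or 3, PMA library 1 or 2, ConA control 5 or 6, or any ConA library ended this call. The adjusted p was then 0.000202 to 0.000352 and the difference -2.18 to -1.94. A pseudocount of 0.1 (adjusted p = 0.000103) and leaving out the variance trend (adjusted p = 0.000356) also ended the COL11A2 call. COL5A1 differed by -0.99 (adjusted p = 9.81e-08), just under the fold, and was called without PMA control 1 (-1.04), PMA control 2 (-1.01), PMA library 1 (-1.03), ConA control 6 (-1.03) or ConA library 2 (-1.03). For COL5A3 the difference of 2.11 was called only without ConA library 1 (2.46), for COL6A5 only without PMA library 2 (-2.80), and for COL8A2 only without PMA control 2 (-1.16), among the fits that left out a library. For 3 members the difference was close to 0. COL18A1 gave 0.013 (95% interval from -0.19 to 0.22), LAMA4 0.0060 (from -0.17 to 0.18) and COL6A2 -0.0073 (from -0.18 to 0.16).

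**Figure D5:**
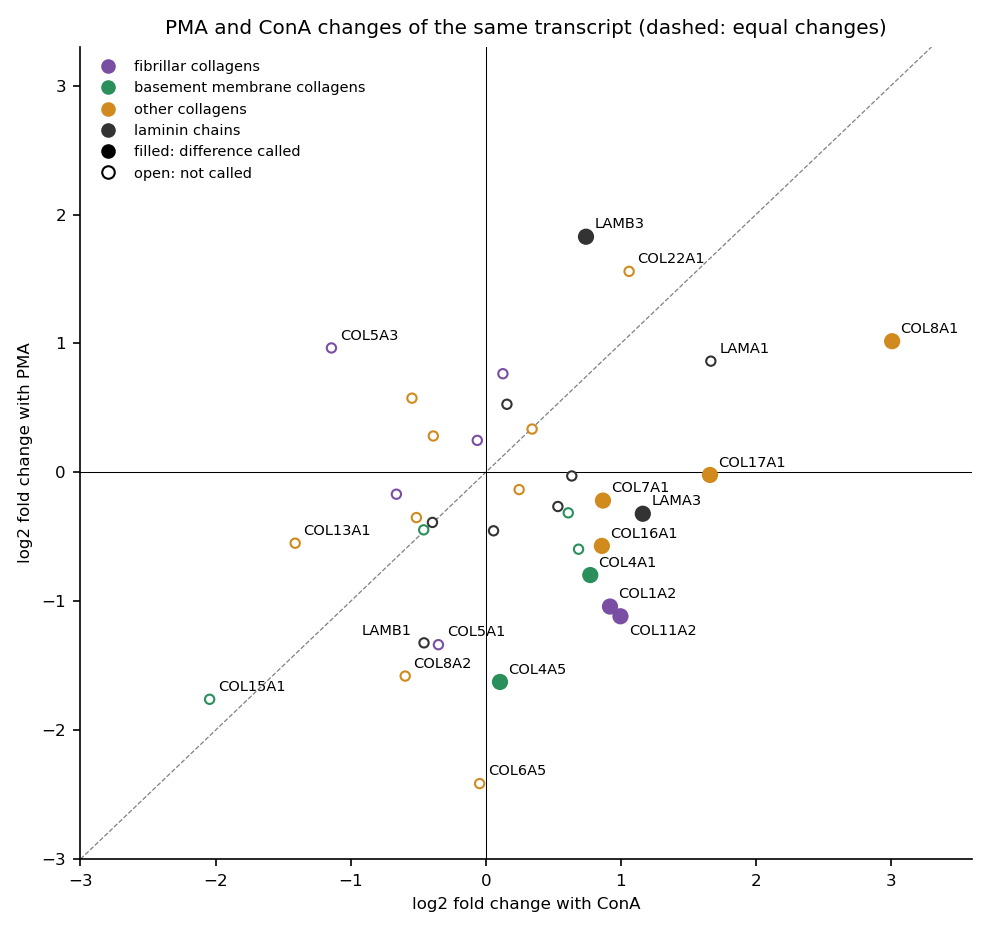
Log2 fold change with ConA (horizontal axis) against that with PMA (vertical axis) for the 35 members tested in both, coloured by class; filled points are members whose difference was called and the dashed line marks equal changes. LAMB3 is the filled point above the line, and 9 members, among them COL8A1, COL17A1, COL4A1 and COL1A2, are filled below it.

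Genes that process collagens or bind laminin and type IV collagen in basement membranes were listed apart from the members. Of 32 collagen maturation genes, 30 were tested (hydroxylases, chaperones, propeptide proteases and crosslinking oxidases), and 1 rose and 3 fell with PMA (13.3%, beside 8.65% of all genes), with a median change of -0.42. P3H2, a prolyl 3-hydroxylase that acts on type IV collagen, rose by 2.02, from 203 ± 24.7 to 821 ± 53.4 normalized counts (SD, n = 3). ADAMTS14, a procollagen N-proteinase, fell by 1.28 on the log2 scale, PCOLCE, an enhancer of C-propeptide removal, by 1.18, and P3H4, named beyond the rule of 3 a list, by 1.13. With ConA 1 of 30 rose (P3H2, 1.04) and 1 fell (ADAMTS14, -1.49), or 6.67% beside 8.71% of all genes, with a median of -0.053.

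Of 16 basement membrane partners, 15 were tested, and none rose and 4 fell with PMA (26.7%, beside 8.65% of all genes, of which 4.61% fell), with a median of -0.64. These were SMOC1, NTN4, SPARC and NID2. SPARC, a collagen-binding matricellular protein, went from 63219 ± 719.8 to 21957 ± 128 normalized counts (-1.53, adjusted p = 3.1e-11), and NID2, a nidogen that links laminin to type IV collagen, from 772 ± 41.5 to 299 ± 4.69 (-1.36), named beyond that rule as well. SMOC1 changed by -2.07 and NTN4, a netrin that binds laminin gamma chains, by -1.66. With ConA 1 of 15 rose (6.67%, beside 8.71% of all genes called), AGRN (1.34), a proteoglycan that binds laminin and dystroglycan, and the median was -0.025. In that experiment SPARC gave 0.033 (95% interval from -0.10 to 0.17), not called.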

How the data were processed

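HT1080 cells were profiled in 12 polyadenylated RNA libraries sequenced by Azenta. The authors deposited 1 table per experiment of signal values, which are normalized counts of a symbol, each library divided by 1 factor. The submitters' processing notes name Partek, Bowtie2, STAR, DESeq2 and the builds hg19 and mm10, without roles. Whether counting used strand is not given in the sources used here, so a gene and its antisense partner cannot be told apart. Under the estimated factors 80.9% to 83.3% of values between 5 and 60 were whole reads (within 0.03), so whole reads were not recovered and no count test was run.

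Treated and control libraries of a table were compared with limma 3.58.1 (R 4.3.3, variance trend) on log2(value + 1), for genes with a mean of at least 10, with Benjamini-Hochberg adjustment over all genes tested. The difference between treatments was fitted over 12 libraries and 4 group means. The scripts were tested on simulated data. Promoter windows are RefSeq's (GRCh38.p14), and lengths are GENCODE release 29. Tables were normalized apart, so levels are compared within a table. 1 gene that the rule takes is not reported here and is in no count of members. Members and lists were chosen with earlier results of these data known. Given with values in every library were 23 members: those called in any comparison and the 2 highest of each class in a table. COL1A1, COL3A1, COL5A2, COL6A5 and LAMC3 were added after their values were seen. Alternatives were other pseudocounts, filters, scalings, thresholds and variance models, leaving out each library, and a replicate block for PMA.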

Additional observations from a re-analysis of the deposited data

Results flagged for a closer look

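These members were picked out because their changes differed between the treatments, by a limma test of the difference itself over 12 libraries (PMA minus ConA, log2 scale, 3 libraries a group). For LAMB3 the difference was 1.0858, with a higher change under PMA. For COL4A1 it was -1.5707 and for COL1A2 -1.961, and in both every PMA library was below its controls and every ConA library above. For COL16A1 it was -1.4301 and for COL11A2 -2.1137, with the same opposite positions of the libraries. For COL8A1 the difference was -1.991, with treated libraries above controls in both experiments. For LAMA3 it was -1.4841, and for COL4A5, COL17A1 and COL7A1 it was -1.7316, -1.6804 and -1.0868. None of these was weighed against an explanation.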

How the results depend on the processing

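With the adjusted p at most 0.05 and no minimum fold, 28 members passed with PMA, 30 with ConA and 27 for the difference, against 8, 7 and 10. Without a variance trend 5 passed with PMA and 3 with ConA. Over all genes the calls then went from 1310 to 867 with PMA and from 1318 to 662 with ConA. Leaving out 1 library gave 5 (without PMA control 1) to 8 members with PMA, 6 to 7 with ConA and 9 to 11 for the difference. Over all genes those fits gave 1107 (without PMA control 1) to 1252 calls with PMA, 1123 to 1415 with ConA and 1427 to 1594 for the difference. Under every alternative tried, 5 of 8 calls were kept with PMA (COL22A1, COL4A5, COL5A1, LAMB1 and LAMB3), 3 of 7 with ConA (COL17A1, COL8A1 and LAMA1) and 5 of 10 for the difference (COL17A1, COL1A2, COL4A1, COL4A5 and COL8A1). The sign of 4 values turned under some settings. COL17A1 with PMA was 0.13 after quantile normalization and -0.061 to 0.026 with 1 library left out. The COL6A2 difference was 0.042 after median centring and -0.058 to 0.052 with 1 library left out. After quantile normalization the COL6A3 difference was -0.23 and the LAMC1 difference -0.044, and in that setting COL7A1 (-0.86), COL16A1 (-1.02), COL11A2 (-1.71) and LAMB3 (0.79) lost the call for the difference, while COL4A2 (-1.35), COL5A1 (-1.05), COL5A3 (2.59) and LAMB1 (-1.07) gained it. The cause was not tested. PMA controls and PMA libraries share the numbers 1 to 3, but same-numbered libraries did not deviate together (r = -0.064, 0.096 and 0.096), so the numbers were not taken to pair the samples. A replicate block on them left the count of members called with PMA at 8 and moved the count over all genes from 1310 to 1264. Of the values for single members, 1141 kept their side of the limits, 50 passed them newly, 37 no longer passed and 8 turned sign. The 50 include values in settings that relaxed the limits themselves, where the estimate did not change. Members with a mean under 10 normalized counts were not tested, so depth limits what can be said of them.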
